A study of Mus musculus with 48 samples.

Results

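Open chromatin was compared between 2 states of CD8 T cells sorted from the same kind of tumour in aged mice: the state labelled age-associated dysfunctional, called Ttad, and the progenitor state, called Tprog. Both carried the control guide, named OTC. The comparison rests on 4 libraries, 2 of Ttad and 2 of Tprog, of the 48 libraries and 21 groups in the series, and it was made over all 53868 peaks. A peak is a stretch of the genome at which the transposase Tn5 cut often. The single peak inside Thy1 is described apart, at the end.

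The cells were OT-1 CD8 T cells that express Cas9 and CD45.1. OT-1 cells recognise a peptide of ovalbumin, and B16-OVA is a mouse melanoma line that makes ovalbumin. Naïve-like splenic cells received a lentiviral guide RNA with an ametrine reporter and were put into hosts 1 day before the tumour was inoculated. Reporter-positive cells were sorted from the tumours 15 days after inoculation. The gates were Slamf6+ Tim-3- for Tprog and Slamf6- Tim-3- for Ttad, so the 2 populations differed at the gate in Slamf6 and shared the lack of Tim-3. The other aged OTC groups were Ttran (Slamf6+ Tim-3+) and Tterm (Slamf6- Tim-3+). A pair of further guides, against Zfp219 and Dusp5, gave their own Ttad and Tprog libraries in aged hosts, 2 of each. In young hosts a contrast is made only between the OTC Tterm (3 libraries) and Tprog (2 libraries), because the Ttad libraries analysed here come from aged hosts. All these groups share Cas9, the OT-1 receptor, the vector and the tumour. A group's library is a pool of cells from independent mice. The labels do not say whether the Ttad and Tprog pools came from the same animals, nor how old the hosts were. Each subset and guide gave 5000 to 50000 cells, read as pairs of 50 bases.

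In tumours and chronic infection, progenitor exhausted CD8 T cells keep the capacity to divide and to renew, under the transcription factor TCF-1 (encoded by Tcf7), and they give rise to effector-like and terminally exhausted cells. Terminal cells lose Tcf7 and Slamf6, gain the inhibitory receptor Tim-3 (encoded by Havcr2), the ectonucleotidase CD39 (Entpd1) and Blimp-1 (Prdm1), and make granzymes and chemokines. Open chromatin at a promoter or a distal element marks where factors can bind. It is not a measure of transcription.

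Some of the peaks called in this comparison lie at promoters, 360 of the 2058 higher in Ttad and 72 of the 1473 lower. A few of these promoters are shown as examples. They are printed for 4 genes because they belong to the genes at which called promoter peaks bear on known roles: a progenitor regulator with a lower promoter peak (Id3), the gene of TCF-1 (Tcf7), the gene of Tim-3 (Havcr2) and the gene of granzyme B (Gzmb). Each is the run of 250 bases before the annotated start, 5′ to 3′ on the gene's strand, from RefSeq on build GRCm38.p6. Capitals mark matches to 2 motifs that were searched on both strands, AP-1 (TGANTCA) and RUNX (TGTGGTT or TGCGGTT). The windows are chr4:136143572-136143821 (plus strand) for Id3, chr11:52282596-52282845 (minus strand) for Tcf7, chr11:46454681-46454930 (plus strand) for Havcr2 and chr14:56262335-56262584 (minus strand) for Gzmb.
Id3: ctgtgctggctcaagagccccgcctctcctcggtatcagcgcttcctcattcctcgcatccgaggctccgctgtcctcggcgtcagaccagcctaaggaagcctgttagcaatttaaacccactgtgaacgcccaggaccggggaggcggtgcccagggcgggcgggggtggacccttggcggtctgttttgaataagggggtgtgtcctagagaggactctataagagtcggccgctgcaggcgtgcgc
Tcf7: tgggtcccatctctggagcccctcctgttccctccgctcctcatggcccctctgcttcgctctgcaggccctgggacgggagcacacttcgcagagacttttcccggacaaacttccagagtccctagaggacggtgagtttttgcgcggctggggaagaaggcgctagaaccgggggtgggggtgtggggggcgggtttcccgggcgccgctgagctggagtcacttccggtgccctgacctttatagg
Havcr2: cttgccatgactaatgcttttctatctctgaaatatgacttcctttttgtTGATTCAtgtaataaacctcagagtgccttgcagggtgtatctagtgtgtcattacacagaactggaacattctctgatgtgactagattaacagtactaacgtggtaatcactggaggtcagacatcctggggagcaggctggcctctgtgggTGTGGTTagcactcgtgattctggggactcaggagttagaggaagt
Gzmb: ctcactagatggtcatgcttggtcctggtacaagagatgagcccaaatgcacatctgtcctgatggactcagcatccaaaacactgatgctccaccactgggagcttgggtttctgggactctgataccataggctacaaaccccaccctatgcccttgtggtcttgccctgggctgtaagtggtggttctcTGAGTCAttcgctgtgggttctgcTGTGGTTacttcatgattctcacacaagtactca
The Havcr2 window held an AP-1 match that starts 200 bases before the start site and a RUNX match 46 bases before it. The Gzmb window held an AP-1 match at 58 bases and a RUNX match at 34 bases before its start. The window of Prdm1, in a higher promoter peak and not printed, held an AP-1 match at 48 bases and no RUNX match. That of Il6ra, in a lower peak and not printed, held neither. The Id3 and Tcf7 windows held neither, and they held no match to the TCF/LEF letters CTTTGAT or CTTTGAA or to the T-box letters AGGTGTGA. Over all 32851 windows of the RefSeq table, AP-1 letters occurred in 6.75%, RUNX letters in 5.59% and TCF/LEF letters in 7.48%. Windows in no peak, 19177 of them, held these letters in 8.46%, 5.77% and 9.24%, and the 13011 windows in peaks that were not called in 4.29%, 5.33% and 5%. Among the 546 windows in peaks higher in Ttad the shares were 4.95%, 6.04% and 4.21%, and among the 117 in lower peaks they were 7.69%, 4.27% and 10.3%. T-box letters occurred in 1.12% of all windows. Windows of 1 gene overlap, and a match is a description of letters, not of a bound site.

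Some peaks of progenitor genes were lower in Ttad than in Tprog. Among them were 3 of 12 at Tcf7, 1 of 7 at Id3, 1 of 11 at Ccr7 and 3 of 46 at Foxp1, with none higher at these genes. Other progenitor genes, Bach2, Myb and Foxo1, had called peaks only in the higher direction. Some peaks of Ccl3, Ccl4, Gzmb, Ifng, Prdm1, Entpd1 and Havcr2 were higher. Most peaks of the progenitor and effector lists were not called. Of the 53868 peaks, 2058 were higher in Ttad (3.82%) and 1473 were lower (2.73%), 3531 in all (6.55%), by limma on log2(normalized reads + 1) at a Benjamini-Hochberg adjusted p under 0.05. These peaks are referred to as called. Among called peaks the median log2 fold change was −1.06 for lower peaks and 0.54 for higher peaks, against -0.003 over all peaks. The lower peaks were also weaker, with a median level over the 48 libraries of 111 normalized reads against 446. A weaker peak needs a larger change to be called, so these medians do not compare the size of falls and rises. Of the 1172 called peaks that changed by at least 1 on the log2 scale, 785 were lower and 387 higher. In 3505 of the 3531 called peaks the 2 Ttad libraries did not overlap the 2 Tprog libraries, as was the case in 25644 of all peaks. Since nearly all called peaks show this, it adds nothing to a call where it is mentioned below.

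The excess of rises depended on the scaling. With the authors' scaling 58.3% of called peaks were higher. Scaled to total reads in peaks, 1392 were higher and 1803 lower (43.6% higher), and the median of all peaks moved to −0.05. Without Tprog replicate 1 the count of called peaks was 1445, without Tprog replicate 2 it was 1761, without Ttad replicate 1 it was 1836 and without Ttad replicate 2 it was 2715. In these fits the lone library is assumed to vary as libraries of other groups do. The libraries held 11511619 and 14660613 reads in peaks for Tprog and 8059981 and 10929698 for Ttad, against a range of 5638413 to 29942755 over the 48 libraries. The Ttad libraries were the shallower ones, and on reads thinned to the smallest of the 4 libraries 3899 peaks were called. Correlation of log2 values over peaks was 0.967 between the Tprog libraries, 0.948 between the Ttad libraries and 0.940 to 0.950 between states. In bulk samples a smaller share of cells with a site open and less open chromatin per cell cannot be told apart.

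**Figure D1:**
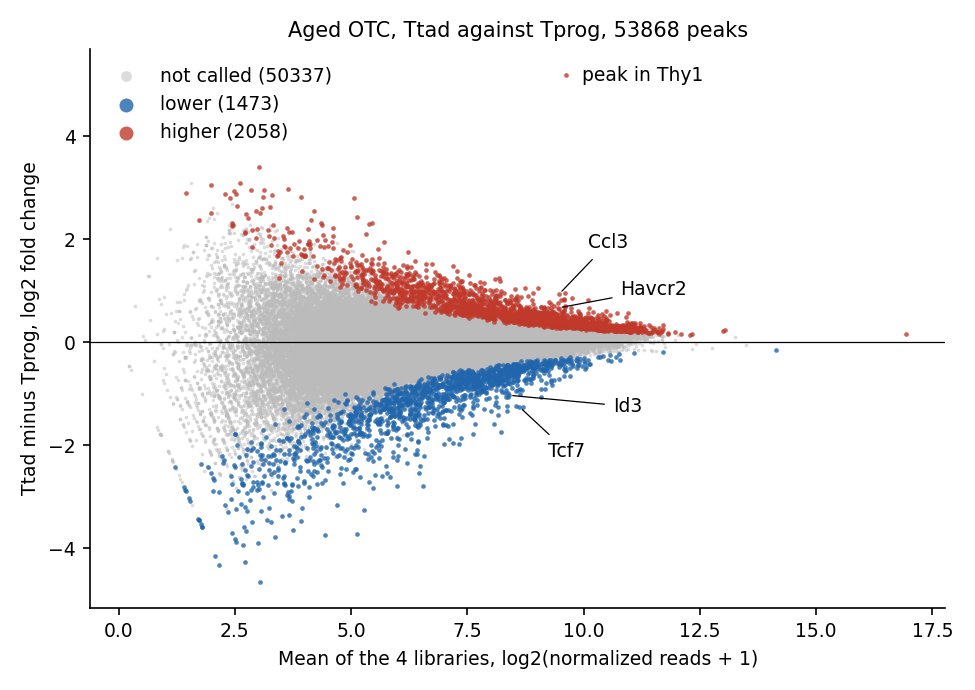
Each point is 1 of the 53868 peaks, with the mean of the 4 libraries as log2(normalized reads + 1) on the x axis and the log2 fold change of Ttad over Tprog on the y axis. The 2058 higher peaks (red) lie mostly at high levels with small rises, the 1473 lower peaks (blue) spread further from 0, and the peak inside Thy1 stands at the top.

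Called peaks differed in place and level. Promoter peaks, which overlap the stretch from 250 bases before to 50 after a start site, were rarely lower: 72 of 9253 (0.778%) were lower and 360 (3.89%) higher. Peaks elsewhere in gene bodies numbered 25385, of which 787 were lower (3.10%) and 983 higher (3.87%). Among the 16470 peaks outside genes but within 100 kb of one, 521 were lower (3.16%) and 624 higher (3.79%). The lower share of falls at promoters also held under quantile normalization (1.11% against 2.68% elsewhere), edgeR (0.80% against 2.86%) and without each library in turn. The promoter rises did not hold in the same way: under quantile normalization 83 promoter peaks were higher and 103 lower. Level differed too, and promoters are strong peaks. Among the strongest 25% of peaks 9.17% were higher and 1.89% lower, and among the weakest 25% it was 0.468% and 1.84%. Within the strongest 25%, 0.561% of promoter peaks were lower and 2.98% of the other peaks. Rises there were also rarer at promoters, with 5.58% of promoter peaks and 12.1% of the other peaks higher. At that level promoter peaks were thus called less often in both directions. The higher peaks were also wider, with a median width of 1224 bases against 983 bases for lower peaks and 899 bases for all peaks.

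The levels in the 2 other aged OTC states are given side by side, since they rest on the same Tprog libraries. Over the 2058 higher peaks the median level was 320 normalized reads in Tprog, 462 in Ttad, 489 in Ttran and 532 in Tterm. Over the 1473 lower peaks it was 153 in Tprog, 71.2 in Ttad, 94.9 in Ttran and 72.6 in Tterm. The peaks were chosen for the gap between the first 2 of these values, which are therefore a description.

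Of the 19 genes in the progenitor list, all had peaks, 255 in total. Of these peaks, 27 were lower in Ttad (10.6%, against 2.73% of all peaks) and 6 were higher (2.35%, against 3.82%), and the median log2 fold change was −0.23. This list and those below were chosen with earlier results of these data known, so their shares are a description. They were not matched to all peaks in level. Lower peaks were assigned to 13 genes. Of the calls, 8, at Ccr7, Foxp1, Id3, Klf2, Slamf6 and Tcf7, held in all 13 alternative settings. With 1 library left out at a time, 18 of the 33 calls of the list were lost without Tprog replicate 1, 18 without Tprog replicate 2, 16 without Ttad replicate 1 and 15 without Ttad replicate 2.

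Tcf7 encodes TCF-1, the factor that defines progenitor cells. A peak within the gene (chr11:52273512-52275959) held 628 and 578 normalized reads in Tprog and 218 and 293 in Ttad. Both Ttad libraries lay below both Tprog libraries, and the fold change on the log2 scale was −1.25 (SE 0.20, adjusted p = 3.82e-06). The promoter peak (chr11:52281225-52284085) held 483 and 523 in Tprog and 342 and 230 in Ttad (log2 −0.84, SE 0.19, adjusted p = 0.00168). That call rested on Ttad replicate 2, without which the change was −0.56 and the adjusted p 0.152. Another peak 30202 bases away held 545 and 570 in Tprog and 371 and 352 in Ttad (log2 −0.62, adjusted p = 0.000918). Of 12 Tcf7 peaks 3 were lower and none higher.

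Id3 encodes an inhibitor of E proteins that marks progenitor and memory precursor cells. Its promoter peak (chr4:136143607-136144833), which contains most of the sequence printed above, held 489 and 466 in Tprog and 211 and 257 in Ttad (log2 −1.03, SE 0.18, adjusted p = 5.17e-05). The 2 groups did not overlap. Ccr7 is the chemokine receptor that directs T cells into lymph nodes. A peak 15659 bases from it held 676 and 605 in Tprog and 246 and 287 in Ttad (log2 −1.26, SE 0.24, adjusted p = 0.000131). Klf2 drives expression of lymphoid homing receptors, and a peak 308 bases from it held 377 and 437 against 226 and 262 (log2 −0.73, adjusted p = 0.000898). A weak second Klf2 peak was at 0 in both Ttad libraries, from 5.66 and 9.76 in Tprog, too few reads for a fold. Foxp1, a factor of T cell quiescence, had 3 lower peaks of 46, and the one that held in all settings (chr6:99485154-99486723) fell from 507 and 532 to 235 and 180 (log2 −1.33, adjusted p = 4.58e-05).

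Slamf6 is the gene of the surface protein used in the gate, so its state is tied to the sort. Of its 6 peaks 2 were lower. The peak within the gene (chr1:171920836-171921932) held 494 and 390 in Tprog and 174 and 193 in Ttad (log2 −1.25, adjusted p = 7.03e-07). The promoter peak held 288 and 414 against 203 and 287 and was not called (log2 −0.51, adjusted p = 0.0683). At the promoter the groups nearly met, at 287 in the higher Ttad library and 288 in the lower Tprog library.

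Other progenitor genes moved in part. Satb1, a chromatin organizer of T cells, had 1 lower peak of 9, from 408 and 416 to 188 and 139 (log2 −1.34, adjusted p = 0.00312), and the call was lost without Ttad replicate 2 (adjusted p = 0.0744). Il6ra, an interleukin-6 receptor chain, had 4 lower peaks of 8, and Cxcr5, the receptor that guides cells into follicles, had 4 of 9. None of those 8 calls held without each library in turn. Bach2, a repressor that restrains effector differentiation, had 3 higher peaks of 35 and none lower, and Lef1, a partner of TCF-1, had 1 higher and 2 lower of 16. Myb and Foxo1 had 1 higher peak each, of 14 and 19, and none lower. Bcl6, Il7r and Tnfsf8 had no called peak among 5, 5 and 11. Most peaks of the list, 222 of 255, were not called.

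**Figure D2:**
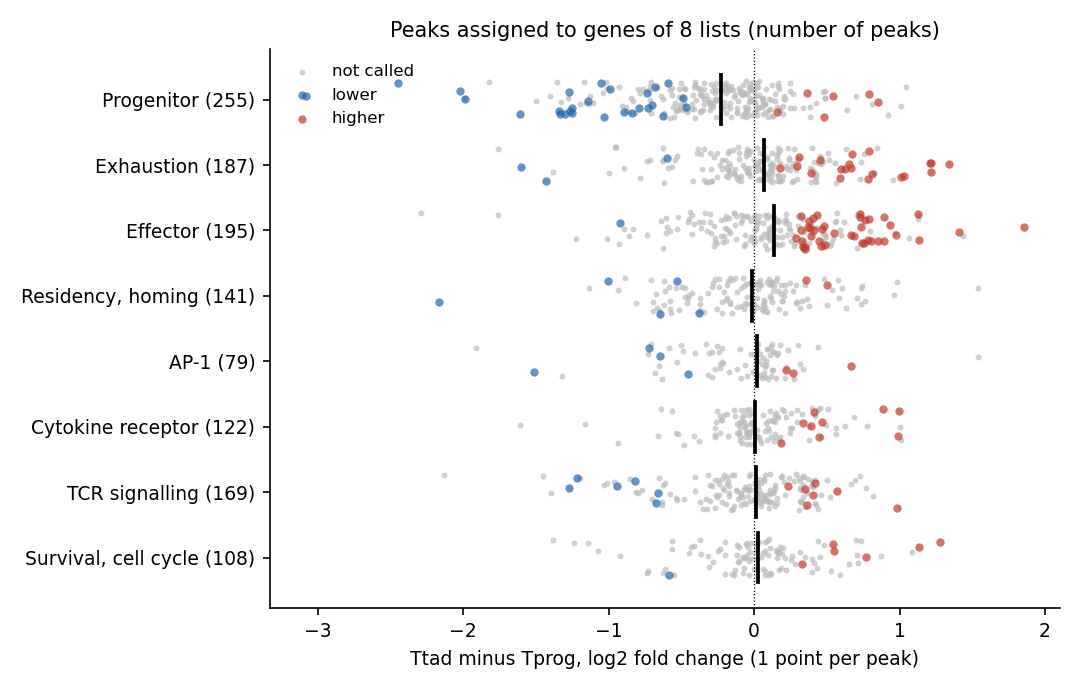
Log2 fold change of Ttad over Tprog for each peak assigned to genes of 8 lists, with the number of peaks in brackets, called peaks in colour, the list's median as a black bar and the median of all peaks as a dotted line. The effector list has 40 higher peaks and 1 lower, the progenitor list 6 higher and 27 lower.

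In the exhaustion list 17 genes had 187 peaks, of which 20 were higher in Ttad (10.7%, against 3.82%) and 3 lower (1.60%, against 2.73%), with a median log2 fold change of 0.06. The higher peaks belonged to 7 genes and 13 of the 20 to Entpd1 and Prdm1. There were 7 calls, at Cd244a, Entpd1, Havcr2 and Prdm1, that held in all settings. The number of higher peaks was 11 without Tprog replicate 1, 16 without Tprog replicate 2, 11 without Ttad replicate 1 and 14 without Ttad replicate 2.

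Havcr2 encodes Tim-3, for which both populations were gated negative. Its promoter peak (chr11:46452770-46455391), the one that contains the sequence printed above, held 585 and 523 in Tprog and 825 and 934 in Ttad. The 2 Ttad libraries were the higher ones, and the log2 fold change was 0.66 (SE 0.08, adjusted p = 1.16e-08). The level was 1256 and 1304 in Ttran and 1351 and 1212 in Tterm, both of which were gated Tim-3 positive. Of 5 Havcr2 peaks 2 were called. The same promoter peak changed by 0.67 in the Zfp219 libraries and 0.53 in the Dusp5 libraries.

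Prdm1 encodes Blimp-1, a repressor of the progenitor programme. Of its 22 peaks 6 were higher and none lower. The peak with the smallest adjusted p (chr10:44449764-44451102, inside the gene) held 200 and 157 in Tprog and 355 and 362 in Ttad (log2 1.01, SE 0.14, adjusted p = 8.43e-08). A peak 35691 bases away held 489 and 465 against 852 and 663 (log2 0.65, adjusted p = 3.16e-06). Entpd1 encodes CD39, which hydrolyses extracellular ATP. Of its 13 peaks 7 were higher and none lower, the others all having a positive fold change, and the peak at chr19:40678551-40680404 held 280 and 285 in Tprog and 451 and 530 in Ttad (log2 0.79, SE 0.12, adjusted p = 4.16e-06). Cd244a, the gene of the receptor 2B4, had a peak at 78.1 and 94.0 in Tprog and 213 and 188 in Ttad (log2 1.22, adjusted p = 6.30e-05).

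Other exhaustion genes had few called peaks. Tox, the factor of the exhaustion programme, had 1 higher peak of 27, at a log2 fold change of 0.59, and that call was lost without Tprog replicate 1 or Ttad replicate 1 and under scaling to total reads. Its relative Tox2 had a lower promoter peak, 439 and 446 in Tprog against 270 and 315 in Ttad (log2 −0.60, adjusted p = 0.00228), a call lost without Ttad replicate 1 (adjusted p = 0.0903). Pdcd1, the gene of PD-1, had 2 higher peaks of 9. The Pdcd1 promoter peak held 2517 and 2749 against 3003 and 2951 (log2 0.18, adjusted p = 0.0314), and this call was lost under quantile normalization, scaling to total reads and edgeR, and without Tprog replicate 1 or either Ttad library. No peak of Lag3, Tigit, Nfatc1 or Ikzf2 was called among 4, 11, 24 and 15. A peak that was not called is not shown to be equal in the 2 states at this depth.

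In the effector list 23 genes had 195 peaks, of which 40 were higher in Ttad (20.5%, against 3.82%) and 1 lower (0.513%, against 2.73%), with a median log2 fold change of 0.14. Level is not matched here either, and among the strongest 25% of all peaks 9.17% were higher. The higher peaks belonged to 14 genes. Under quantile normalization 33 were higher and 0 lower, under scaling to total reads 31 and 1, and with edgeR 35 and 0. There were 13 calls, at Ccl3, Ccl4, Ccl5, Gzmb, Id2, Ifng and Runx3, that held in all settings. The number of higher peaks was 24 without Tprog replicate 1 and 25 without Ttad replicate 2, and it was 28 without either of the others.

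Ccl3, Ccl4 and Ccl5 encode chemokines that attract myeloid cells and T cells. All 4 Ccl3 peaks were higher. The one with the smallest adjusted p, 17572 bases from the gene (chr11:83628444-83630271), held 502 and 524 normalized reads in Tprog and 1006 and 954 in Ttad (log2 0.93, SE 0.08, adjusted p = 1.07e-14), and it was 1503 and 1398 in Ttran and 1613 and 1716 in Tterm. Of 4 Ccl4 peaks 3 were higher, as were 3 of 7 Ccl5 peaks, and none was lower. The Ccl4 peak at chr11:83657239-83658290 held 320 and 252 in Tprog and 456 and 489 in Ttad (log2 0.73, adjusted p = 3.82e-06). Ccl3, Ccl4 and Ccl5 lie near each other on chromosome 11, so the assignment of a peak to 1 of them is uncertain.

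Gzmb encodes granzyme B, a protease that kills target cells. Its promoter peak (chr14:56261701-56263110) held 532 and 589 in Tprog and 753 and 894 in Ttad (log2 0.55, SE 0.10, adjusted p = 3.05e-05). A peak within the gene held 161 and 190 against 310 and 341 (log2 0.89, adjusted p = 0.000234). Both Ttad libraries were above both Tprog libraries at each. Gzma, Gzmc and Gzmk, other granzymes, had no called peak, and neither had Nkg7, Fasl, Tnf, Cx3cr1, S1pr5 or Klrc1.

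Ifng encodes interferon-γ. Of its 27 peaks 7 were higher and none lower, and all 7 lay outside the gene. The peak 53587 bases away (chr10:118386052-118387459) held 352 and 334 in Tprog and 545 and 558 in Ttad (log2 0.68, SE 0.13, adjusted p = 0.000105), and another, 40552 bases away (chr10:118486446-118488183), held 199 and 263 against 407 and 352 (log2 0.73, adjusted p = 4.13e-05). Runx3 encodes a factor that maintains CD8 identity and the cytotoxic programme. Of its 23 peaks 5 were higher and none lower. A peak within the gene (chr4:135168417-135169906) held 631 and 659 in Tprog and 1192 and 1140 in Ttad (log2 0.85, SE 0.10, adjusted p = 2.63e-10). Id2, the E protein inhibitor of effector cells and in this respect the counterpart of Id3, had 4 higher peaks of 9. One Id2 peak at chr12:25164363-25166344 held 430 and 411 against 607 and 573 (log2 0.49, adjusted p = 0.000918). The genes of the T-box factors, Tbx21 and Eomes, had 1 higher peak each, of 9 and 14.

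**Figure D3:**
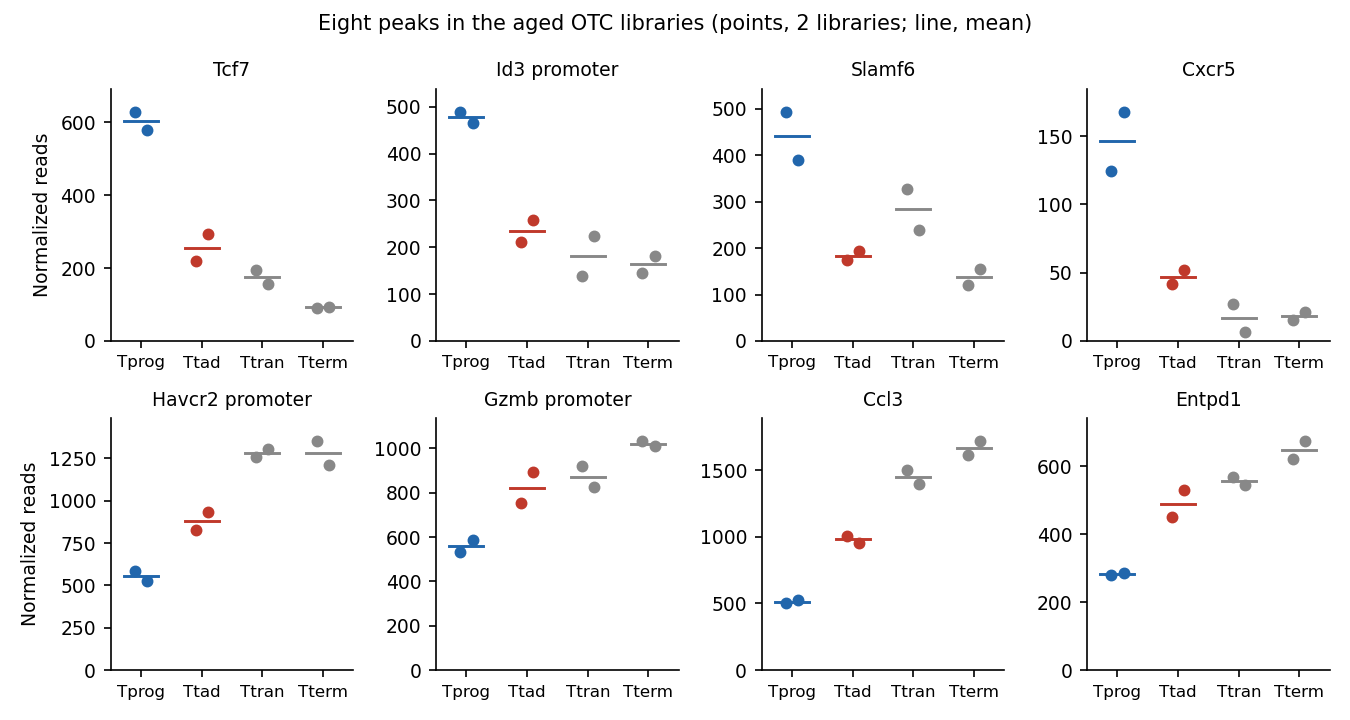
Normalized reads in 8 peaks in each of the aged OTC libraries, Tprog and Ttad in colour and Ttran and Tterm in grey; points are the 2 libraries of a group and lines their mean. At Tcf7, Id3, Slamf6 and Cxcr5 (a call lost without any 1 library) both Ttad libraries lie below both Tprog libraries, and at Havcr2, Gzmb, Ccl3 and Entpd1 both lie above them.

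The remaining 5 lists are read against the same shares of all peaks, 3.82% higher and 2.73% lower, which are not matched for level. Few of their calls held in all 13 settings. It was 1 of 7 for residency and homing, 2 of 7 for AP-1 and 1 of 9 for cytokine receptors. For receptor signalling it was 3 of 13, and for survival and cell cycle 1 of 7. The genes named as examples were mostly those with such a call. In the residency and homing list 2 of 141 peaks were higher (1.42%) and 5 lower (3.55%). Cxcr4, the receptor for the chemokine CXCL12, had 3 lower peaks of 12, and its promoter peak held 936 and 898 in Tprog and 614 and 659 in Ttad (log2 −0.53, SE 0.10, adjusted p = 0.000143). In the list of AP-1 genes, which respond to receptor signals, 3 of 79 peaks were higher (3.80%) and 4 lower (5.06%). A peak near Fos held 1051 and 1008 against 758 and 743 (log2 −0.46, adjusted p = 0.00102), while a peak in Mafk held 440 and 463 against 751 and 686 (log2 0.67, adjusted p = 4.47e-06). Of 122 cytokine receptor peaks 9 were higher (7.38%) and 0 lower, which included a peak at Il18r1, a chain of the interleukin-18 receptor, at 169 and 154 in Tprog and 283 and 317 in Ttad (log2 0.89, adjusted p = 0.000183). Under quantile normalization 4 were higher, and of the 9 calls only the one at Il18r1 held in all settings.

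In the list of T cell receptor signalling genes 7 of 169 peaks were higher (4.14%) and 6 lower (3.55%). Lat, the adaptor that carries the receptor signal, had a peak at 313 and 313 in Tprog and 154 and 170 in Ttad (log2 −0.95, adjusted p = 8.80e-05). Dusp5, a phosphatase that acts on ERK and the target of one of the other guides, had 3 higher peaks of 17 in these control cells. The strongest call among them was at chr19:53464435-53465312, with 554 and 477 against 813 and 719 (log2 0.57, adjusted p = 5.68e-05). Among the 108 peaks of survival and cell cycle genes 6 were higher (5.56%) and 1 lower (0.926%). The promoter peak of Ccnd3, a D-type cyclin, held 534 and 531 against 812 and 742 (log2 0.54, adjusted p = 0.000160). Cdkn2a, which encodes the senescence markers p16 and p19 ARF, had a weak promoter peak at 34.0 and 61.2 in Tprog and 112 and 91.2 in Ttad (log2 1.13, adjusted p = 0.0128). That call was lost without Tprog replicate 1 (adjusted p = 0.374) and without Ttad replicate 1 (adjusted p = 0.152).

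The labelled cell type was present in the chromatin. The Cd8a promoter peak held 774 and 741 normalized reads in Tprog and 808 and 812 in Ttad. Over 91 peaks of CD8 T cell genes, 3 were higher and 4 lower, and their summed level was 33952 and 33092 in Tprog and 33440 and 33611 in Ttad, within the range of 30834 to 36291 over all libraries. Of 9 B cell, 13 dendritic and 7 melanoma peaks none was called. Of 28 myeloid peaks 4 were higher (14.3%, against 3.82% of all peaks) and 1 lower, with sums of 4616 and 4701 in Tprog and 4980 and 4977 in Ttad (range over all libraries 4616 to 7024). All 4 higher peaks of the stroma list, of 21 (19.05%), belonged to Pecam1, with sums for the list of 3535 and 3401 against 3925 and 3802. Of 15 NK cell peaks 1 was higher and 2 lower (13.3%, against 2.73% of all peaks), and of 6 CD4 and regulatory T cell peaks 1 was higher. That peak in Cd4 held 228 and 211 in Tprog and 342 and 356 in Ttad (log2 0.67, adjusted p = 0.00257). The Cd4 call was lost without Tprog replicate 2 (adjusted p = 0.0541). None of these marker calls held in all settings, and their part in the other results was not tested. The marker genes Foxp3, Ms4a1, Csf1r, Lyz2, Tyr and Dct had no peak assigned to them, and neither had Cd3g of the CD8 T cell list. Other genes of the same lists, such as Pax5, Spi1 and Mitf, did have peaks, so a missing peak does not tell cell types apart.

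The largest changes at single peaks lay mostly at loci outside these lists. Among called peaks without overlap between groups and with at least 50 normalized reads in the higher group, the 12 largest rises ran from 1.65 to 2.81 on the log2 scale. They were all weak in Tprog. The peak near Ptgis, the gene of prostacyclin synthase, held 20.4 and 16.9 in Tprog and 93.9 and 97.3 in Ttad (log2 2.31, SE 0.45, adjusted p = 0.000189). A peak within Fbxo31, which encodes an F-box protein, held 11.3 and 28.4 against 111 and 76.4 (log2 2.29, adjusted p = 2.44e-07). The largest rise, at Foxred2 with 4.53 and 27.5 against 109 and 69.0 (log2 2.81), was lost without Tprog replicate 1 (adjusted p = 0.0672). The promoter of Gzmd, another granzyme, held 12.5 and 18.6 in Tprog and 75.5 and 46.8 in Ttad (log2 1.90, adjusted p = 0.0115), a call lost without Tprog replicate 1 or Ttad replicate 1 (adjusted p = 0.168 and 0.177). Of these 12 rises, 6 held in all settings, at Atxn1, Clic4, Fbxo31, Mynn, Ptgis and Slc10a7.

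The 12 largest falls ran from −2.61 to −3.74 and lay at peaks weak in Ttad. A peak 37664 bases from Gypc, the gene of glycophorin C, held 138 and 114 in Tprog and 10.1 and 7.39 in Ttad (log2 −3.72, SE 0.70, adjusted p = 0.000128). The peak in Rbm33, which encodes an RNA binding protein, held 135 and 106 against 13.4 and 9.86 (log2 −3.27), and the one in Kcnq5, a potassium channel gene, held 122 and 114 against 20.1 and 12.3 (log2 −2.82). Sh3kbp1, the gene of the adaptor CIN85, had the largest fall, from 71.3 and 86.1 to 0 and 34.5 (log2 −3.74). It rested on Ttad replicate 1, without which it was −1.16 with an adjusted p of 0.514. Of the 12 falls, 7 held in all settings, at Asap1, Ccnq, Gypc, Kcnq5, Nipa2, Rbm33 and Ric8b.

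Some genes had several called peaks. Over all peaks 3.82% were higher and 2.73% lower, and a gene with many peaks has more occasion for a call. Of 14982 genes with a peak, 1471 had at least 1 higher peak, 1140 at least 1 lower and 181 both. At least 3 higher peaks and no lower one were found at 98 genes, and the reverse at 36. Bcr had 9 higher peaks of 18, with log2 fold changes of 0.33 to 1.07, and the signal summed over all its peaks was 4384 and 4285 in Tprog and 5879 and 5792 in Ttad. Genes here and in the next paragraph were chosen for their called peaks, so sums that lie apart follow from the choice. Rgs3, a regulator of G protein signals, had 8 of 31 and Litaf, an endosomal membrane protein gene, 8 of 14. Filip1 and Gse1 had 7 higher peaks each, of 24 and 27, which is as many as Entpd1 and Ifng had.

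On the lower side Asap1, which encodes an Arf GTPase activating protein, had 6 of 30 peaks and a median log2 fold change of −1.37 over those called. Its summed signal was 6623 and 6749 in Tprog and 5537 and 5293 in Ttad. Arhgef3 had 6 of 36, where 2.73% of all peaks were lower. Il23r, the interleukin-23 receptor gene, had 4 of 13 with a median of −2.12, and its sum was 1154 and 1403 in Tprog and 768 and 772 in Ttad. Sema4f had 5 of 10, and 1 of these peaks changed from −1.96 to 0.12 without Ttad replicate 2. Of the 100 called peaks of the 16 genes chosen this way, 23 held in all settings; 47 were lost without Tprog replicate 1, 52 without Tprog replicate 2, 49 without Ttad replicate 1 and 40 without Ttad replicate 2.

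The contrast of Ttad with Tprog was also made in libraries that share none with the OTC set. In the Zfp219 libraries 4119 peaks were called (7.65%), 2344 higher (4.35%) and 1775 lower (3.3%). Of the 2058 peaks higher in OTC, 741 were higher there too, which is 36.0% of the OTC list and 31.6% of the Zfp219 list, and 9 were lower. Of the 1473 lower in OTC, 502 were lower (34.1% of the one list and 28.3% of the other) and 2 were higher. In the Dusp5 libraries 3949 peaks were called (7.33%), 2467 higher (4.58%) and 1482 lower (2.75%). There 744 of the higher OTC peaks were higher (36.2% and 30.2% of the lists) and 5 lower, and 399 of the lower were lower (27.1% and 26.9%) and 5 higher. The same sign without regard to the call was seen for 85.6% of higher and 85.4% of lower OTC peaks in Zfp219, and for 87.7% and 85.3% in Dusp5. Over all peaks the change was positive for 51.3% and negative for 48.7% in Zfp219, and for 51.9% and 48.1% in Dusp5.

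Because the peaks were chosen by their OTC values, a smaller change in other libraries follows from the choice, and the sizes are not compared. Over the peaks higher in OTC the median log2 fold change was 0.54 in OTC and 0.32 in both Zfp219 and Dusp5. Over the lower peaks it was −1.06 in OTC, −0.58 in Zfp219 and −0.47 in Dusp5. The correlation of the changes over all 53868 peaks was 0.373 with Zfp219 and 0.308 with Dusp5, given as a description, since the peaks of a comparison share the libraries and their depth. All 3 guides called the same direction at 451 higher and 252 lower peaks.

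Lower progenitor peaks numbered 27 in OTC, 39 in Zfp219 and 30 in Dusp5, where 2.73%, 3.3% and 2.75% of all peaks were lower. Higher effector peaks numbered 40, 38 and 31, where 3.82%, 4.35% and 4.58% of all peaks were higher. The largest rises called in all 3 guides were at Gzmd, Ptgis, Foxred2, Ccl9, Cd300c and Pbx4. At Pbx4, a homeobox gene, the peak held 40.8 and 47.02 in the OTC Tprog libraries and 111 and 131 in Ttad (log2 1.44), with 1.58 in Zfp219 and 2.17 in Dusp5. The largest falls called in all 3 were at Gypc, Mob3b, Ift80, Fars2, Prag1 and Rbm33. Of these 12 peaks, those at Ptgis, Pbx4, Gypc and Rbm33 kept their OTC call in all settings. The Gypc peak changed by −3.72 in OTC, −2.84 in Zfp219 and −3.24 in Dusp5.

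**Figure D4:**
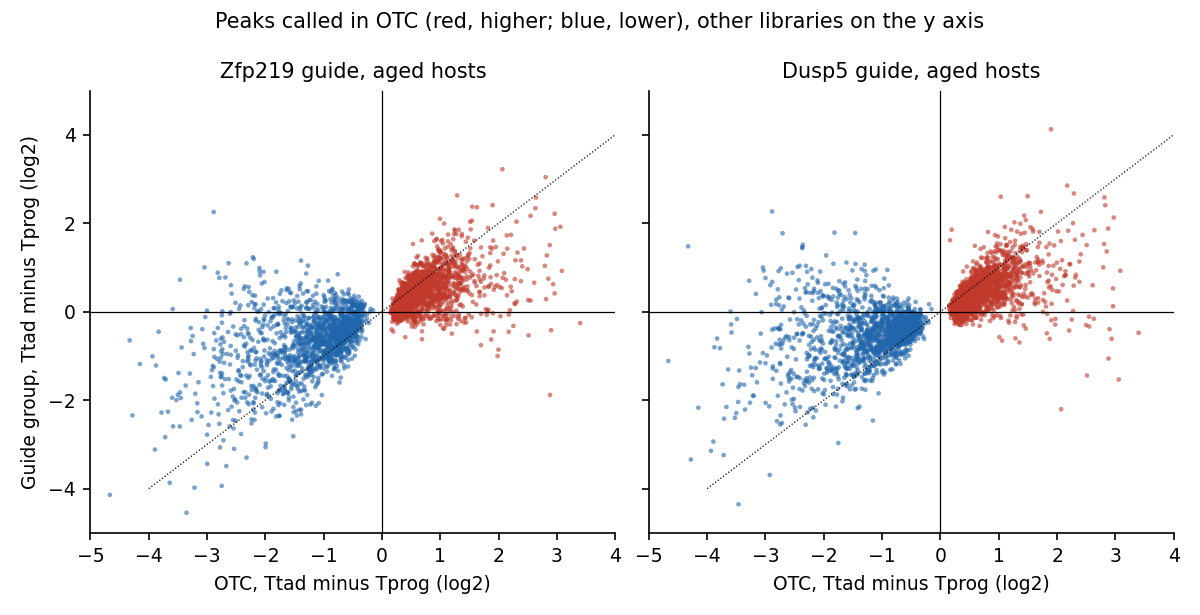
Log2 fold change of Ttad over Tprog in the Zfp219 (left) and Dusp5 (right) libraries against that in OTC, for peaks called in OTC, without the 2 called peaks assigned to Thy1; the dotted line marks equal change. Most points keep their sign. The peaks were chosen by the x axis, so their place relative to the dotted line shows no difference in size.

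In young hosts the nearest contrast is that of Slamf6- Tim-3+ Tterm with Tprog, which shares no library with the aged set and differs from it in the Tim-3 gate and the age of the host at once. It called 14279 peaks (26.5%), 6767 higher (12.6%) and 7512 lower (13.9%). Of the 2058 peaks higher in aged Ttad, 1126 (54.7%) were higher in young Tterm, which is 16.6% of the young list, and 149 were lower. Of the 1473 lower in Ttad, 894 (60.7%) were lower in young Tterm, 11.9% of that list, and 36 were higher. The opposite calls with the largest change in aged Ttad, picked after the values were seen, were a peak in the phosphatase gene Ptpn3, at 181 and 141 in aged Tprog and 282 and 347 in aged Ttad (log2 0.96), with −0.58 in young Tterm, and a peak near Hes1, a target of Notch, at 113 and 79.8 against 53.7 and 34.5 (log2 −1.13), with 0.92 in young Tterm. The Ptpn3 call in aged Ttad held in all settings. The Hes1 call was lost without any 1 of the 4 libraries (adjusted p 0.0521 to 0.373) and under quantile normalization.

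The effect in OTC was tested against the mean effect in Zfp219 and Dusp5 with a contrast of the differences. It called 81 peaks (0.15%), 36 with a change in OTC above that mean (0.0668%) and 45 with one below it (0.0835%), and 4753 peaks had an unadjusted p under 0.05. Of the 36, 22 were at promoters, and their median change was 0.34 in OTC, −0.14 in Zfp219 and 0.01 in Dusp5. Of the 45, 1 was at a promoter and 3 on unplaced scaffolds, and the median changes were −1.29, 0.40 and 0.84. A change below the mean of the guides was not always below both. On the scaffold Un_JH584304 it was 0.16 in OTC, −0.40 in Zfp219 and 1.61 in Dusp5. An example chosen after the values were seen is a peak 16115 bases from Il10, the gene of an anti-inflammatory cytokine. It held 215 and 266 in OTC Tprog and 441 and 403 in OTC Ttad (log2 0.81), with changes of 0.06 in Zfp219 and 0.26 in Dusp5 and a difference of 0.66 (SE 0.16, adjusted p = 0.0449). The means were 374 in Tprog and 390 in Ttad for Zfp219, and 273 and 325 for Dusp5. The Zfp219 means thus lay further from those of OTC (241 and 422) in Tprog than in Ttad. Which of the 81 peaks were called moved with the settings: 11.1% of them were called in the same direction with these groups alone and 29.6% with edgeR. The set also changed without any 1 of the OTC libraries, including Ttad replicate 1, where the count moved less. The number called moved with the settings too, from 10 with these groups alone to 104 without the weakest 25% of peaks, and edgeR called 27. With 1 library left out it was 22 without OTC Tprog replicate 1, 31 without OTC Tprog replicate 2, 261 without OTC Ttad replicate 2, 51 without Zfp219 Tprog replicate 1, 33 without Zfp219 Ttad replicate 1 and 49 without Zfp219 Ttad replicate 2.

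The peak inside Thy1 stood apart from all others. Thy1 encodes CD90, a surface protein of T cells. The peak spans 833 bases (chr9:44046603-44047436) within the gene body and held 135 and 122 normalized reads in Tprog and 4884 and 4611 in Ttad. Its change of 5.20 on the log2 scale (SE 0.14, adjusted p = 3.41e-52) was the largest of all peaks in size, and the call held in all 13 settings. The peak took 0.0361% of the signal in Ttad replicate 1 and 0.00103% in Tprog replicate 1.

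Its level in the other groups was as follows. In aged OTC cells it was also high in Ttran, at 2944 and 3051, and intermediate in Tterm, at 959 and 829. In the Zfp219 guide it was high in Ttran, at 3158 and 3153, and only 567 and 668 in Ttad. In the Dusp5 guide the Ttad libraries held 208 and 172. The libraries of the 17 groups other than OTC Ttad, Ttran and Tterm and Zfp219 Ttran lay between 117 and 668. The test of the difference between OTC and the other 2 guides gave 4.44 (SE 0.18, adjusted p = 6.83e-39). The change from Tprog to Ttad was 1.59 in Zfp219 and −0.07 in Dusp5.

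Changes at the rest of the locus were smaller. The 13 other peaks assigned to Thy1 changed by −0.47 to 0.53, and 1 was called, 33447 bases away, from 331 and 342 to 433 and 546 (log2 0.53, adjusted p = 0.0209). The nearest other peak in the gene body (chr9:44043058-44044719) held 410 and 435 in Tprog and 436 and 376 in Ttad (log2 −0.06). Why the level at the peak of 833 bases differs between libraries was not tested.

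**Figure D5:**
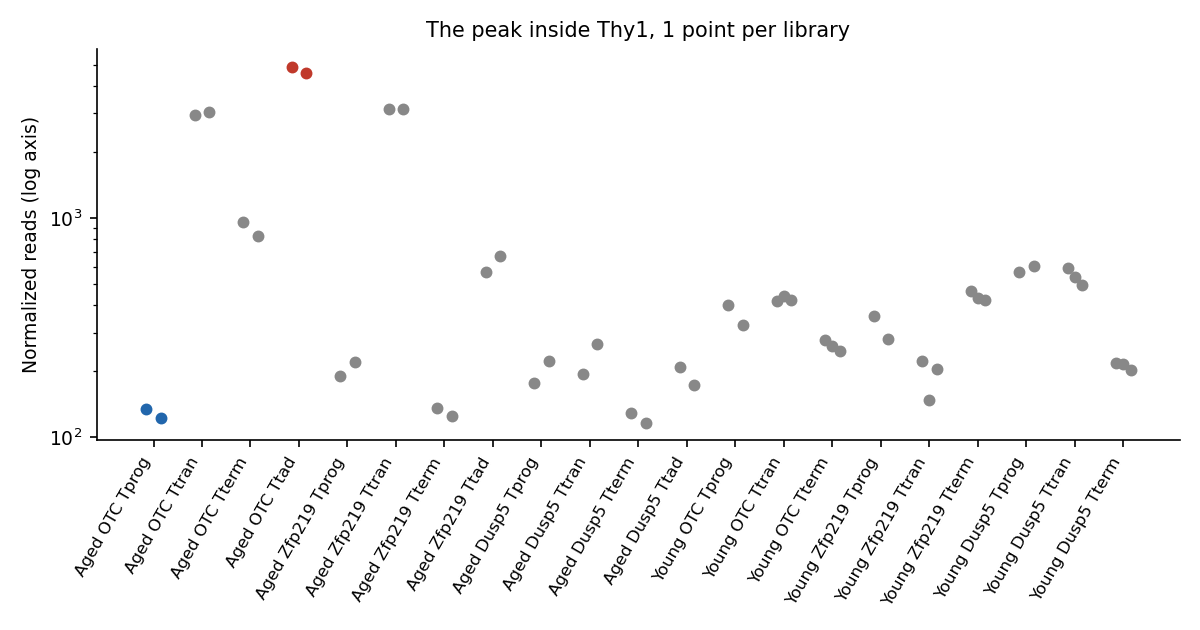
Normalized reads in the peak inside Thy1 in each of the 48 libraries by group, on a log axis, with aged OTC Tprog in blue and aged OTC Ttad in red. The aged OTC Ttad (4611 and 4884), aged OTC Ttran, aged OTC Tterm and aged Zfp219 Ttran libraries lie above 800, and all the others at or below 668.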

How the data were processed

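ATAC-seq was done on sorted CD8 T cells in 48 libraries, and the libraries were grouped by the labels' guide, host and cell state. The values used are signal: reads per peak divided by a factor of the library, as the authors deposited them in 1 table over a common set of peaks. The submitters' processing notes name the build mm10 and Bowtie2 2.2.9, SAMtools 1.3.1, Picard 2.8.0, MACS2 2.1.1 and DESeq2 1.28.1, without their roles or settings; whether reads were shifted for the transposase is not given in the sources used here. In each column all values of the deposited signal are whole multiples of 1 step (within 1e-06 of a read), so whole reads were recovered and used as counts in an edgeR alternative for 47 columns; in 1 young column the step of 0.991 is too near 1 to be told from rounding, and it is in no count test.

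Log2(value + 1) was fitted with limma 3.58.1 in R 4.3.3 (lmFit, eBayes with trend) over all 48 libraries and 53868 peaks with a mean for each group, and p-values were adjusted by Benjamini-Hochberg over all peaks. Fold changes are on this scale and understate the change of weak peaks. A comparison of 2 against 2 has spread estimated from all groups, and replicates are pools of independent mice. The scripts were tested on simulated data with 2-fold changes at 200 peaks, of which limma recovered 55.5% with 20 false calls and edgeR 4.0.16 recovered 53% with 12. The weakest peaks were not among those changed. Reads in peaks ran from 5638413 to 29942755 per library. Peaks were assigned to the protein-coding gene body they overlap, else to the nearest within 100 kb (51108 peaks), with RefSeq annotation and promoters of GRCm38.p6, whose tables are not complete; assignment does not show regulation.

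Peaks named are the 12 largest rises and falls with no overlap between groups and a mean of at least 50, the 8 genes with most called peaks in each direction (at least 3 and none of the other), the called peaks of the gene lists, the 6 largest of each direction shared by all 3 guides, and the Thy1 peak; some items are not reported here. Members and lists were chosen with earlier results of these data known. Replicate numbers did not pair the libraries (correlation of deviations -0.0003). Alternatives were a pseudocount of 8, leaving out the weakest 25% of peaks, quantile normalization, scaling to total reads, the groups alone, a replicate block, each library left out, array weights, edgeR and, added after seeing the data, reads thinned to the smallest library.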

Additional observations from a re-analysis of the deposited data

Results flagged for a closer look

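The change from Tprog to Ttad differed between the OTC libraries and the mean of the Zfp219 and Dusp5 libraries at 81 peaks, by the limma test of the difference itself. The peak inside Thy1 was one of them, with a difference of 4.44 on the log2 scale (adjusted p = 6.83e-39), since it was high in both OTC Ttad libraries (4884 and 4611 normalized reads), lower in Zfp219 Ttad (567 and 668) and lowest in Dusp5 Ttad (208 and 172). Of the 81 peaks, 57 had a group mean of at least 50 normalized reads, and in 10 of the 45 with a lower change the OTC Ttad mean was below 10. What sets these peaks apart was not tested.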

How the results depend on the processing

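The count of 3531 called peaks stayed within 1.5 times of its value under each alternative but 3 that left out a library. A similar count does not mean the same peaks. Of the 3531, 70.5% were called in the same direction under quantile normalization and 65.3% with the 2 groups alone. The share was smaller still in each fit that left out a library. The count was 3582 with a pseudocount of 8, 3649 without the weakest peaks, 2810 under quantile normalization and 3195 scaled to total reads. It was 2607 with the 2 groups alone, 2938 with array weights, 3165 with edgeR and 3899 with thinned reads. With a replicate block it was 3556; the numbers share no deviation, so the block is not a pairing (86 for the difference test, 4069 for Zfp219, 4017 for Dusp5, 11822 for young Tterm). With 1 library left out the ranges were 1445 to 2715 for OTC, 22 to 261 for the difference test, 1826 to 2533 for Zfp219, 1781 to 2941 for Dusp5 and 9518 to 12093 for young Tterm. The difference test called 40 with a pseudocount of 8, 36 under quantile normalization, 10 with the groups alone and 27 with edgeR, and Dusp5 alone called 2313; the causes were not tested. Of 269 called peaks that were named, 71 held in all 13 alternatives; 1 changed sign, the Sema4f peak, whose change ran from −4.04 to 0.12 with 1 library left out (0.12 without Ttad replicate 2). With 2 libraries a group, limma recovered 55.5% of simulated 2-fold changes in this comparison, so a change of that size can go uncalled. The run gave 20 false calls beside 111 recovered ones. It changed none of the weakest peaks, so recovery there was not measured.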
